A study of Mus musculus with 3 samples.

Results

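The F3-positive neutrophils of 4T1-luc mammary tumors are the cells with transcripts of F3, the gene of tissue factor, among the neutrophils of 3 single-cell RNA sequencing libraries. A kept cell counted as a neutrophil when at least 3 of 8 neutrophil genes (Csf3r, Cxcr2, Hdc, Il1r2, Retnlg, G0s2, Trem1, Mmp9) and at most 1 of 6 genes of other leukocytes (Fn1, Ccr2, C1qa, C1qb, Cd3e, Nkg7) were detected. It was F3-positive when it also had at least 1 F3 count (a unique molecular identifier, UMI) and fewer than 3 of the 7 interferon genes Ifit1, Ifit2, Ifit3, Ifit3b, Rsad2, Cmpk2 and Usp18. These limits were set with measured values of the same cells. The rule found 826 cells of 12472 kept cells, 231 in vehicle, 421 in p38i and 174 in p38KO. The neutrophils with fewer than 3 interferon genes and no F3 count, here called F3-negative, numbered 1410, 1851 and 1037. Another 387, 175 and 444 neutrophils had at least 3 of the 7 interferon genes and are called interferon neutrophils.

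All libraries came from live CD45+ (7AAD-negative) cells sorted from primary tumors, grown from 200000 luciferase-expressing 4T1 cells in the fourth mammary fat pad of female BALB/c mice aged 6 to 8 weeks and taken at day 14. The vehicle group bore p38α wild-type tumors and received DPBS, and the p38i group bore the same tumors and received the p38 inhibitor LY2228820 (ralimetinib) at 30 mg/kg by daily gavage for 10 days from day 4. The p38KO group bore tumors of 1 CRISPR-Cas9 clone, p38a-KO-H9, that lacks p38α, and for it no treatment is labelled. The hosts of all groups were wild type for Mapk14, the gene of p38α, so Mapk14 counts of neutrophils do not check the p38KO label. Tumors of 3 mice were pooled into the 1 library of each group. With 1 library per group no difference between groups has a replicate check, and every interval given here is a 95% interval that covers counting error only. Library, mice and group cannot be told apart. The libraries held 21675352, 25996832 and 25997636 counts in 4588, 6343 and 5212 barcodes, and kept cells had medians of 3162, 3038 and 3317 counts. Between 5 and 9 barcodes were shared by each pair of libraries, none of them between F3-positive cells of both.

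Tissue factor is a membrane receptor that binds coagulation factor VII and starts the extrinsic pathway, in which factor X is activated and thrombin is formed. Its mRNA is inducible in myeloid cells, and AP-1, NF-kB and Sp1 sites in the promoter of the human gene are known to take part in that induction. Neutrophils that infiltrate tumors are short-lived cells that can release chemokines recruiting more neutrophils through Cxcr2. The markers given for the F3-positive population besides F3 were Acod1, the mitochondrial enzyme that makes itaconate, Cxcl2, a neutrophil chemokine, Plaur, the urokinase receptor, and Ccl4, a CC chemokine. F3 lies on the plus strand of GRCm38 chromosome 3 from base 121723537 to 121735048 (GENCODE M21).

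Promoter sequences of 300 bases are shown for F3 and for 4 of the genes highest beside it. The 4 were the only leading genes with a window in which either of 2 motifs was matched. The RefSeq windows of build GRCm38.p6 run from 250 bases before to 50 bases after the start: F3 at chr3:121723287-121723586 (plus strand), Plaur at chr7:24462233-24462532 (plus strand), Il1a at chr2:129309923-129310222 (minus strand), Cxcl2 at chr5:90903649-90903948 (plus strand) and Cxcl3 at chr5:90785851-90786150 (plus strand). Capitals mark matches, on either strand, to the AP-1 letters TGANTCA or to the NF-kB motif, GGG and TTTCC with any 2 bases (NN) between them; the motifs do not overlap each other in these windows.
F3: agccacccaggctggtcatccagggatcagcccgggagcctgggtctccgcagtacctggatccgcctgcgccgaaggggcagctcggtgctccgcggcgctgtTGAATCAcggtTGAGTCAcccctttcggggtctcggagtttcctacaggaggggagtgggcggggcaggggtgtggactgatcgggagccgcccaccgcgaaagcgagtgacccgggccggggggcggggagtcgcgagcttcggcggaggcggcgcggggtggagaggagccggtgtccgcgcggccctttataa
Plaur: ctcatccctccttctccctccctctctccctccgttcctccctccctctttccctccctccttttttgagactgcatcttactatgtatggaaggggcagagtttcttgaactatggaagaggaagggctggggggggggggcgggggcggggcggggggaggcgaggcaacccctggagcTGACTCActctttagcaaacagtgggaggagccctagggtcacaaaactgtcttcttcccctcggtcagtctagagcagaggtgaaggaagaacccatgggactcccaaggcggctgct
Il1a: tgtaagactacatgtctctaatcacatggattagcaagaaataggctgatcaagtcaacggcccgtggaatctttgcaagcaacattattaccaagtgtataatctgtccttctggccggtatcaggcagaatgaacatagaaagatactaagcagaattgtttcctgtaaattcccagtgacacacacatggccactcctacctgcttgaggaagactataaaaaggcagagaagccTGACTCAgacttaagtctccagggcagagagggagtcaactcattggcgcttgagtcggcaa
Cxcl2: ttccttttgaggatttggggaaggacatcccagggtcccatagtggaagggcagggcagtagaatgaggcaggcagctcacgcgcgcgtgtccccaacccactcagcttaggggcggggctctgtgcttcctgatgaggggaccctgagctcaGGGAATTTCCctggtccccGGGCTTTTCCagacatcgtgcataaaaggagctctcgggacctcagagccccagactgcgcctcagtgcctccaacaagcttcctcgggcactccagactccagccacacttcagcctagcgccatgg
Cxcl3: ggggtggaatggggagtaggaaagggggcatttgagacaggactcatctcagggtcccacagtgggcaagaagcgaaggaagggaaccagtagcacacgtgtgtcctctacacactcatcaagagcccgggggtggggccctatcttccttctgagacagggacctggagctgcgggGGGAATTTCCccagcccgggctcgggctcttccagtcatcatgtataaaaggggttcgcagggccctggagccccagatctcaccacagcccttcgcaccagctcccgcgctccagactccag
The F3 window held 2 AP-1 matches, and those of Plaur and Il1a held 1 each, whereas Cxcl2 held 2 NF-kB matches and Cxcl3 held 1. The F3 window also holds cggagtttcc, which misses the NF-kB letters only at its first base and was not counted. A window without a match can therefore still hold a variant of the motif. Of 32851 promoters of this length, 7.81% held an AP-1 match and 1.63% an NF-kB match. A window was found for 15 of the 20 leading genes described below, of which 2 held an AP-1 match and 2 an NF-kB match. These are the 4 genes shown, and no other window of the 15 held either motif. The GC box GGGCGG, searched on both strands as well, was present in the windows of 10 of the 15 genes and in 35.7% of all promoters. F3 and Plaur each had 3 GC boxes. These are letter matches, and no binding was measured.

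Of 12 neutrophil genes outside the rule, S100a8, S100a9 and Clec4d were present in nearly all F3-positive cells. S100a8, a subunit of calprotectin, was detected in 99.6%, 99.8% and 98.9% of them in vehicle, p38i and p38KO, and Clec4d, a C-type lectin of neutrophils and monocytes, in 93.5%, 95.5% and 96.0%. They were found in other cells too. S100a8 was detected in 71.3%, 71.5% and 54.4% of monocytes or macrophages and 44.2%, 44.7% and 31.1% of T cells, and Clec4d in 63.9%, 65.7% and 42.6% and in 5.31%, 7.45% and 3.87%. Wfdc21, a whey acidic protein of neutrophils, was detected in 67.5%, 77.2% and 57.5% of F3-positive cells and in 13.5%, 18.6% and 12.1% of monocytes or macrophages. Lcn2, the siderophore-binding lipocalin, was detected in 44.2%, 56.1% and 39.7% of F3-positive cells, and Mmp8, a collagenase, in 36 of 231, 84 of 421 and 9 of 174 cells. Ly6g, a surface marker of mouse neutrophils, was detected in 8.23%, 6.18% and 2.87% of F3-positive cells and in 8.72%, 7.67% and 5.59% of F3-negative cells, so its mRNA was scarce in both. By level the F3-positive cells stood apart from monocytes or macrophages, with S100a8 at 70780, 78829 and 57015 CPM against 3325, 4534 and 1951 CPM, although its detection overlapped.

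Markers of other cells were low, partly because the rule capped 6 of them, 2 each in the macrophage and monocyte lists and 1 each in the T cell and NK cell lists. The summed level of 9 macrophage markers was 318, 292 and 445 CPM (the gene's counts per 1000000 of all counts summed over the cells) in F3-positive neutrophils, led by Apoe, against 13190, 12061 and 26825 CPM in the monocytes or macrophages of the same libraries. The 5 T cell markers summed to 29.4, 38.6 and 36.7 CPM, against 5392, 5302 and 5699 CPM in T cells. Without the capped genes, 7 macrophage markers summed to 270.1, 269 and 342 CPM against 9543, 9144 and 19592 CPM in monocytes or macrophages, and 4 T cell markers to 28.1, 33.9 and 32.1 CPM against 4472, 4410.2 and 4754 CPM in T cells. The 5 dendritic cell markers, led by Cd74, summed to 396, 359 and 383 CPM and were higher in F3-negative cells, at 648, 1054 and 858 CPM. Monocyte markers summed to 134, 239.7 and 91.7 CPM, NK cell markers to 6.68, 4.73 and 9.17 CPM and B cell markers to 13.4, 1.58 and 0 CPM, with all 4 B cell genes at 0 in p38KO. Platelet markers (led by Pf4) summed to 9.36, 13.4 and 16.1 CPM, tumor epithelial markers to 2.67, 4.73 and 25.2 CPM, mast cell markers to 0, 6.31 and 39.0 CPM and fibroblast and endothelial markers, nearly all Pecam1, to 34.8, 41.8 and 36.7 CPM. No doublet caller was run. Cells with over 3 times the median UMI count of their library's neutrophils made up 4.33%, 4.75% and 1.72% of F3-positive cells and 1.70%, 3.84% and 1.25% of F3-negative cells.

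F3 was detected in a minority of neutrophils in every library. Of the neutrophils with fewer than 3 interferon genes, 14.1% had an F3 count in vehicle (12.4% to 15.9%, 231 of 1641), 18.5% in p38i (17.0% to 20.2%, 421 of 2272) and 14.4% in p38KO (12.4% to 16.5%, 174 of 1211). The exact Clopper-Pearson interval of p38i lay above those of vehicle and p38KO, which overlapped. After each cell was thinned to 1500 UMIs the shares were 9.93% (8.53% to 11.5%), 14.0% (12.6% to 15.4%) and 12.3% (10.5% to 14.3%), and the interval of p38KO overlapped both others while those of vehicle and p38i stayed apart. At 2 or more F3 counts the shares were 7.37% (6.16% to 8.75%), 8.36% (7.26% to 9.58%) and 7.43% (6.02% to 9.06%), and all intervals overlapped. After thinning to 1500 UMIs F3 was found in 0.708%, 0.716% and 0.387% of T cells, taken here as the background. At full depth 7, 11 and 6 T cells held 20, 20 and 12 F3 counts. Whether free RNA or doublets gave these counts was not tested. After thinning, F3 was found in 2.39%, 1.34% and 1.84% of monocytes or macrophages. The unthinned shares in those classes were 1.24%, 1.58% and 1.16% at median depths of 5280, 3959.5 and 4730.0 UMIs for T cells, and 7.58%, 5.06% and 5.61% at 9388, 8812.5 and 9269.5 UMIs for monocytes or macrophages. F3-positive neutrophils had medians of 2566, 2366 and 2235.5 UMIs, so F3 was more frequent in neutrophils than in deeper cells of other classes.

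Interferon neutrophils, which the rule leaves out, were F3-positive more often still, at 34.9% (30.1% to 39.9%), 33.1% (26.2% to 40.6%) and 29.1% (24.9% to 33.5%). They made up 19.1%, 7.15% and 26.8% of all neutrophils, the smallest share being that of p38i. Counted over all neutrophils with the interferon neutrophils included, F3 was detected in 18.05% (16.4% to 19.8%), 19.6% (18.02% to 21.2%) and 18.3% (16.5% to 20.3%), and all intervals overlapped. With the F3-positive neutrophils of the rule alone set against all neutrophils, the shares were 11.4% (10.0% to 12.9%), 17.2% (15.7% to 18.8%) and 10.5% (9.08% to 12.1%), and the interval of p38i lay above the others. The separation of p38i was therefore seen for F3-positive cells with fewer than 3 interferon genes, and not once F3-positive interferon neutrophils were counted with them.

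**Figure D1:**
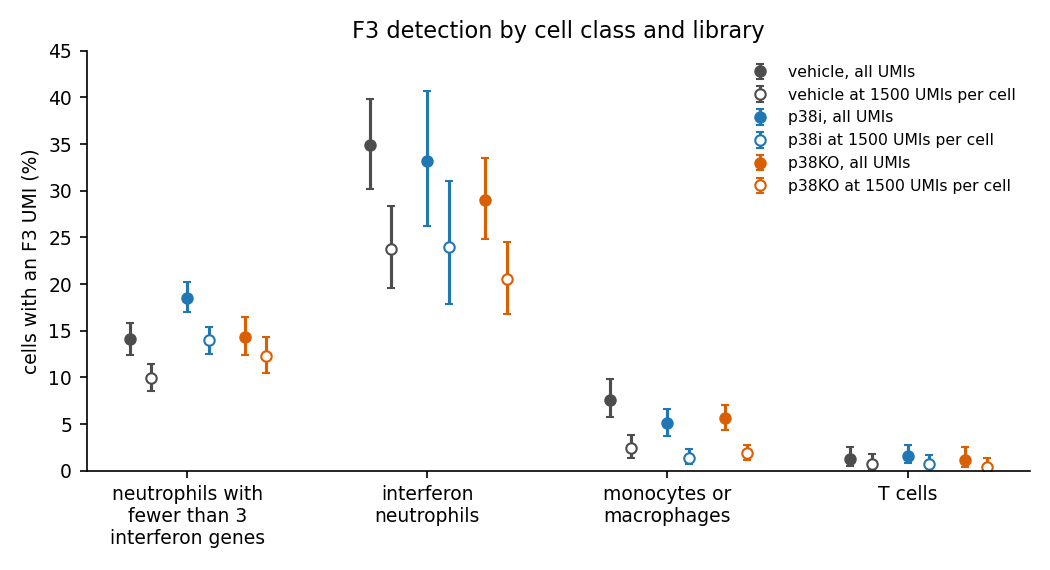
Percent of cells with an F3 count (y axis) in neutrophils with fewer than 3 interferon genes, interferon neutrophils, monocytes or macrophages and T cells (x axis) of each library, at full depth (filled) and after thinning to 1500 UMIs per cell (open); bars are exact 95% binomial intervals over cells. T cells lie at 1.58% or below, and interferon neutrophils at full depth lie highest, from 29.1% to 34.9%.

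The number of F3 counts per cell was small. A single F3 count placed 425 of the 826 cells in the population, 181 cells had 2 and 220 had 3 or more, with at most 21 in a cell. The cells nearest the limits were 115 with 2 interferon genes inside and 86 with 3 outside, and 90 with 3 neutrophil genes inside and 65 F3-positive cells with 2 outside. One gene of another leukocyte was present in 17.3%, 13.8% and 31.6% of F3-positive cells, and 59 F3-positive cells with 2 such genes lay outside. Over depth, the F3-positive share of eligible neutrophils was 9.66% below 2000 UMIs and 24.6% from 5000 UMIs in vehicle, 14.6% and 23.1% in p38i, and 12.2% and 19.2% in p38KO. F3-negative sets therefore include shallow cells in which F3 could have been missed. F3-positive cells had fewer genes detected at equal depth, with medians of 549, 574 and 550.0 genes at 1500 UMIs against 594.5, 606 and 615 in F3-negative cells. The level of F3 in F3-positive cells was 818 CPM (755 to 886) in vehicle, 669 CPM (625 to 716) in p38i and 982 CPM (891 to 1079) in p38KO, which the rule itself bounds from below.

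The comparison of F3-positive with F3-negative neutrophils asked which genes accompany F3, and since F3 chose the cells it is a description with no test. A gene was called when its CPM differed at least 2-fold in the same direction in all 3 libraries and it had at least 50 counts over both sets in each. Of 4089 genes tested, 18 were higher (0.44%) and 56 were lower (1.37%) in F3-positive cells. The median log2 ratio of all genes tested was -0.23, and 17.6% were above 0 in all 3 libraries and 48.9% below, so a typical gene was somewhat lower in F3-positive cells. This offset was strongest among the least abundant genes, at -0.44, and near 0 among the most abundant, at -0.02.

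Among the 4 other markers, Cxcl2 was at 21505, 14242 and 22182 CPM in F3-positive cells of vehicle, p38i and p38KO and at 9127, 5287 and 8572 CPM in F3-negative cells. Plaur was at 1861, 1970.4 and 2463 CPM against 817, 935 and 872 CPM. For both genes the lowest F3-positive library lay above the highest F3-negative one. Ccl4 was at 2211, 1557 and 3674 CPM against 993, 599 and 1770.4 CPM, more than 2-fold apart within each library although the p38KO F3-negative level passed the p38i F3-positive one. One vehicle cell held 282 of the 1654 Ccl4 counts, and without it the vehicle level was 1834 CPM, 1.85-fold that of F3-negative cells and under the limit. Without its highest F3-positive cell p38KO was also under the limit, at 3433 CPM and 1.94-fold, whereas p38i was at 2.44-fold. With each gene's highest 1% of cells left out of both sets the call held. In cells with none of the 6 excluded genes the ratios were 0.93, 1.24 and 1.08, and with at least 5 neutrophil genes 0.92, 1.36 and 1.41, so vehicle alone fell under the limit in both. Acod1 was at 1839.6, 1538 and 2734 CPM against 1010.2, 744 and 1282 CPM. Its log2 ratio was 0.86 in vehicle, 1.05 in p38i and 1.09 in p38KO, which missed the 2-fold limit in 1 library.

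By the smallest of its 3 ratios Il1a led the called genes, followed by Ccl3 and Cxcl3. Il1a, which encodes the alarmin interleukin-1α, was at 120.3, 117 and 326 CPM in F3-positive cells and 35.9, 30.6 and 82.2 CPM in F3-negative cells, log2 ratios of 1.74, 1.94 and 1.99. Ccl3, a CC chemokine that binds Ccr1, had ratios of 1.34, 1.66 and 1.72, and Cxcl3, a Cxcr2 ligand like Cxcl2, had 1.71, 1.29 and 1.72. Il1a and Ccl3 were both above every F3-negative library in all F3-positive libraries. Hbegf and Nrg1, ligands of the ErbB receptors, were at 40.1, 52.8 and 59.6 CPM against 7.29, 13.9 and 27.8 CPM and at 40.1, 85.9 and 61.9 CPM against 19.8, 35.0 and 18.1 CPM. Of the chemokines that bind Cxcr2, both tested were called higher, with a list median of 1.54. Of 5 CC chemokines 2 were called higher (Ccl3 and Ccl4), against 0.44% of all genes tested. Ccl6 was at 0.68, 0.38 and 0.57 and was not called.

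The other called genes act inside the cell or on its surface. Cd274, the checkpoint ligand PD-L1, was at 1430.5, 1260.0 and 1663 CPM against 555, 539.6 and 639 CPM, and Hcar2, a receptor for hydroxybutyrate, at 1997, 1499.7 and 2692 CPM against 982, 743 and 1299 CPM. No F3-positive library of either gene overlapped an F3-negative one. Sod2, the mitochondrial superoxide dismutase, had log2 ratios of 1.20, 1.15 and 1.10, Hk2, a hexokinase, 1.11, 1.07 and 1.07, and Nampt, an enzyme of NAD synthesis, 1.02, 1.02 and 1.40. Cish, a feedback inhibitor of cytokine receptors (1.21, 1.31, 2.05), Ralgds, an activator of Ral GTPases (1.23, 1.13, 1.58), Tgif1, a homeobox repressor (1.22, 1.11, 1.13), Mapk6, an atypical MAP kinase (1.07, 1.11, 1.08), and Ppme1, a phosphatase methylesterase (1.15, 1.01, 1.34), completed the 18. Maff, a small Maf factor, and Tnfrsf26, a decoy receptor, reached 0.98 in vehicle and were not called. The lowest ratios of Hcar2, Ppme1 and Nrg1, each 1.01, and of Nampt, 1.02, were close to the limit, that of Nrg1 from 30 counts in F3-positive cells of vehicle. Without each gene's highest cell 13 of the 18 stayed called, and Ccl4, Nrg1, Hcar2 and Ppme1 were among those that did not.

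**Figure D2:**
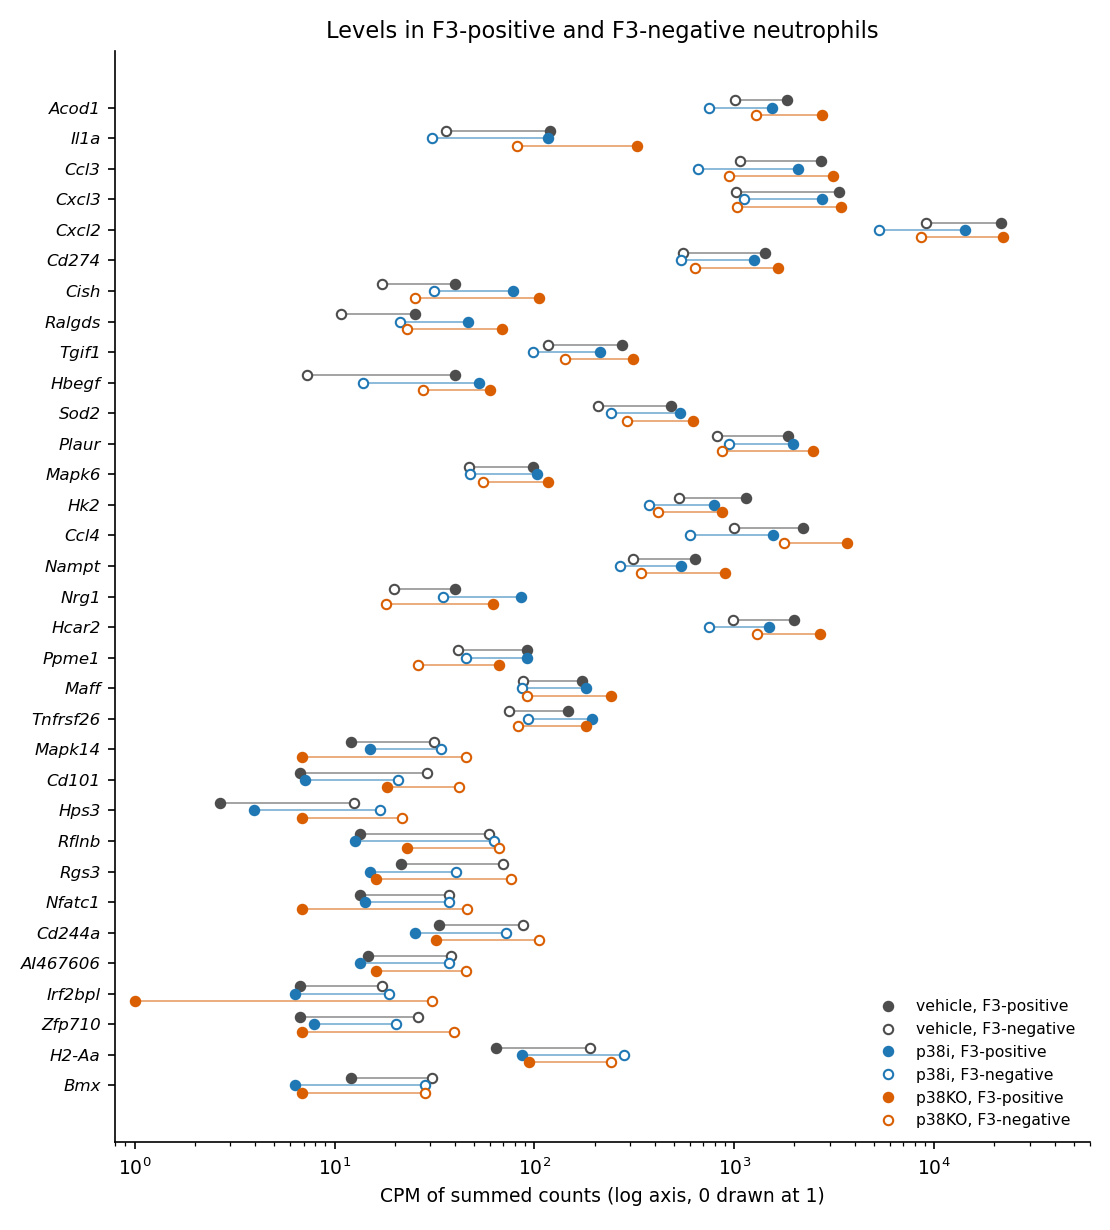
CPM of summed counts (x axis, log scale, 0 drawn at 1) of the named genes in F3-positive (filled) and F3-negative (open) neutrophils of each library, joined by a line per library. Genes from Acod1 to Tnfrsf26 lie to the right in F3-positive cells, and those from Mapk14 to Bmx lie to the left, in all 3 libraries.

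Genes lower in F3-positive cells were mostly of low abundance. Of the 10 lowest, Rflnb, a filamin-binding protein, was at 13.4, 12.6 and 22.9 CPM against 59.0, 62.6 and 66.1 CPM, and Hps3, a component of lysosome-related organelle assembly, had log2 ratios of -2.23, -2.10 and -1.66. Zfp710, a zinc finger protein, Bmx, a Tec family kinase, Rgs3, a regulator of G protein signalling, Nfatc1, a calcium-regulated transcription factor, Cd244a, a SLAM family receptor, AI467606 and Irf2bpl were also called. Irf2bpl had no count in p38KO F3-positive cells. H2-Aa, a chain of MHC class II, was called too, at 64.2, 86.7 and 94.0 CPM against 189.9, 279 and 240.7 CPM. It belongs with the dendritic cell markers, of which all 3 tested were below 0 in all libraries, and its middle ratio became -0.12 when each gene's highest 1% of cells was left out. Among listed genes, Cd101, a marker of neutrophil maturation, was at 6.68, 7.10 and 18.3 CPM against 29.1, 20.9 and 41.9 CPM, and Siglecf, a sialic acid-binding lectin of tumor neutrophils, had ratios of -1.57, -1.39 and -1.08. Mapk14, which encodes p38α, was at 12.0, 15.0 and 6.88 CPM against 31.4, 34.2 and 45.6 CPM, log2 ratios of -1.38, -1.19 and -2.73. Its F3-positive levels, from 9, 19 and 3 counts, lay below all F3-negative ones, also in p38KO, in which only tumor cells lack the gene.

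Of the genes followed over the number of F3 counts per cell, Cxcl2 and Plaur were higher at each step in all 3 libraries. This is again a description of cells chosen on F3. Cxcl2 was at 9127, 17938, 22597 and 25933 CPM in vehicle neutrophils with 0, 1, 2 and 3 or more F3 counts, at 5287, 11810, 13371 and 21294 CPM in p38i and at 8572, 16672, 18664 and 32524 CPM in p38KO. Plaur went from 817 to 2691 CPM in vehicle, from 935 to 2834 CPM in p38i and from 872 to 3016 CPM in p38KO, higher at each step. Ccl4 was not ordered in vehicle, at 993, 2356.5, 2472 and 1881 CPM. There Acod1, Ccl3, Cxcl3, Il1a and Cd274 were also lower at 3 or more F3 counts than at 2. Acod1 was at 2082 against 2370 CPM and Cxcl3 at 4325 against 4818 CPM. In p38KO, Cxcl3 and Hk2 were not higher at each step. Cebpd, a CCAAT-binding factor, and Txnip, which restrains glucose uptake, both among the 56 lower genes and chosen after their values were seen, went from 509 to 143 CPM and from 378 to 104 CPM in vehicle. In p38KO both were higher at 3 or more F3 counts than at 2. Median depth also differed between the classes, at 2402 UMIs with 0 and 2558 with 3 or more F3 counts in vehicle, 2121 and 2499.5 in p38i and 2082 and 2338 in p38KO, and its part was not tested.

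**Figure D3:**
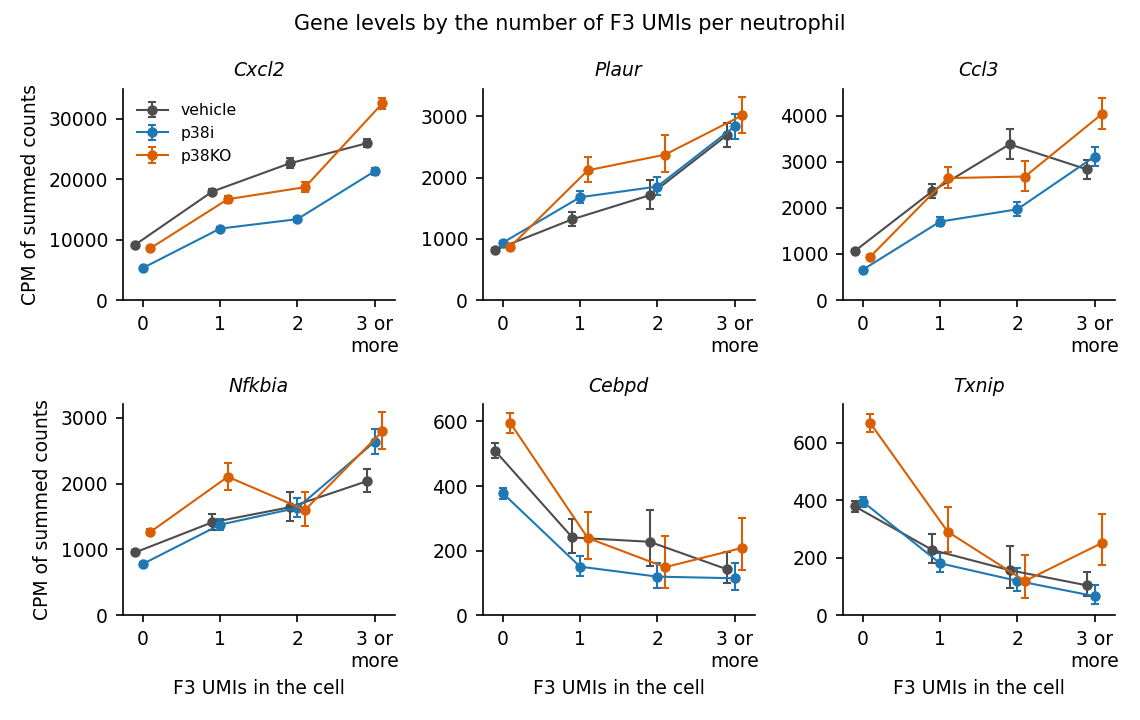
CPM of summed counts (y axis) of 6 genes in neutrophils grouped by their F3 counts (x axis), with exact 95% Poisson intervals as bars and 1 line per library. Cxcl2 and Plaur are higher at each step in all libraries, and Cebpd and Txnip are lower in cells with F3 than in cells without it.

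The markers were also found together in single cells. After thinning to 1500 UMIs, all 4 other markers were detected in 17.7%, 21.1% and 29.3% of F3-positive cells and in 6.67%, 6.70% and 10.5% of F3-negative cells. None of the 4 was detected in 2.60%, 0.950% and 1.15% against 10.1%, 15.1% and 13.6%. Ccl3 without Cxcr2 was found in 32.9%, 28.0% and 23.6% of F3-positive cells against 14.5%, 13.3% and 10.5%, and Cxcr2 together with Mmp9 in 17.3%, 18.1% and 19.0% against 36.8%, 33.0% and 42.0%. The F3-positive cells thus had the chemokines more often than F3-negative cells, and the receptor Cxcr2 with the gelatinase Mmp9 less often, in all 3 libraries. Interferon neutrophils, with or without F3, showed a similar pattern, with all 4 markers in 19.4%, 18.9% and 21.4%, Ccl3 without Cxcr2 in 32.0%, 17.7% and 25.7% and Cxcr2 with Mmp9 in 19.9%, 23.4% and 23.4%, so it was not particular to the F3-positive cells. Both Cxcr2 and Mmp9 are genes of the neutrophil rule, and their summed levels gave log2 ratios of -0.65, -0.57 and -0.53 and of -0.93, -0.72 and -1.41.

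Of 5 coagulation factors and cofactors tested none was called. Since 0.44% of all genes tested were called higher and 1.37% lower, a list of this size without a call does not stand apart from all genes, and nothing is read from such counts here or below. P4hb, the disulfide isomerase known to act on tissue factor, was at 1030.8, 975 and 849 CPM against 599, 621 and 479 CPM, log2 ratios of 0.78, 0.65 and 0.83. Tgm2, a transglutaminase, had 0.60, 0.70 and 0.52, and F10, coagulation factor X, was at 131, 158 and 43.6 CPM against 104, 135 and 43.1 CPM. Fgl2, a membrane prothrombinase, was at 273, 222 and 514 CPM against 499, 349.6 and 781 CPM. F7, the ligand of tissue factor, reached at most 9.46 CPM in F3-positive cells, and its inhibitor Tfpi at most 0.788 CPM. In fibrinolysis, Plaur was the 1 called gene of 4 tested, and Plat and Plg had no count in F3-positive cells. Of the adhesion and protease-activated receptors, Selplg, the P-selectin ligand, was called lower, at 295, 218 and 305 CPM against 620, 480 and 729 CPM, and F2r, the main thrombin receptor, was at most 2.67 CPM in F3-positive cells, in which F2rl1 and F2rl3 had no count. F2rl2, protease-activated receptor 3, was at 36.1, 51.3 and 18.3 CPM against 17.8, 25.8 and 10.9 CPM, log2 ratios of 1.02, 0.99 and 0.75 from 27, 65 and 8 counts in F3-positive cells, and had too few counts in p38KO to be tested.

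Most glycolysis and hypoxia genes had ratios above 0 without reaching 2-fold. Of 25 tested, 24 were above 0 in all 3 libraries and 1, Hk2, was called, with a list median of 0.56. Of these genes 24 were among the 1022 most abundant genes tested, where the list median was 0.55 against -0.02 for all genes and 23 of 24 were above 0 in all libraries against 35.5% of all genes. Hilpda, an inhibitor of lipolysis induced by hypoxia, had log2 ratios of 1.27, 1.04 and 0.90, Ero1l, an oxidase of the endoplasmic reticulum, 1.07, 0.84 and 0.79, and Ldha, lactate dehydrogenase A, 0.83, 0.65 and 0.69. Of 8 ATF4 and endoplasmic reticulum stress genes, 7 were above 0 in all libraries and none was called, with a median of 0.41. The interferon list without the rule genes had a median of 0.64 with none of 10 called.

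Inflammatory feedback genes were divided. Of 17 NF-kB genes tested, 1 was called (Sod2), with a list median of 0.25. Nfkbia, the NF-kB inhibitor IκBα, was at 0.81, 1.13 and 0.80, and Icam1, an adhesion molecule, at 0.95, 1.18 and 1.00. Nfkb1, Rel and Bcl3 each stayed within 0.60 of 0 in every library. Of 10 genes of the interleukin-1 family and inflammasome, Il1a was called. Il1b was at -0.10, -0.01 and 0.30, whereas Il1rn, the receptor antagonist, was at 0.84, 1.02 and 0.80. None of 18 immediate-early and MAP kinase feedback genes was called, and the median was -0.10, with Atf3 at 0.88, 0.77 and 1.07 and Ier2 at -0.98, -1.21 and -0.68. None of 9 other inflammatory mediators was called (median 0.44), none of 8 chemokine receptors (-0.05), none of 9 survival and death genes (0.13), none of 6 granule proteins (0.00) and none of 12 neutrophil identity genes (-0.11). By library the granule median was 0.17 in vehicle, 0.00 in p38i and -1.40 in p38KO, and the identity median was -0.07, -0.11 and -0.51, so p38KO was the lowest for both lists. Single cells carried much of the vehicle and p38i sums: without each gene's highest cell in either set the granule medians were -0.65, -0.61 and -1.48 and the identity medians -0.24, -0.17 and -0.66. The tumor neutrophil state list had 2 higher genes, Cd274 and Hcar2, and 1 lower, Siglecf, of 14. The granulocyte genes that the study names, picked on these libraries, had Cd101 lower of 14, and the p38 pathway list had Mapk14 lower of 7.

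**Figure D4:**
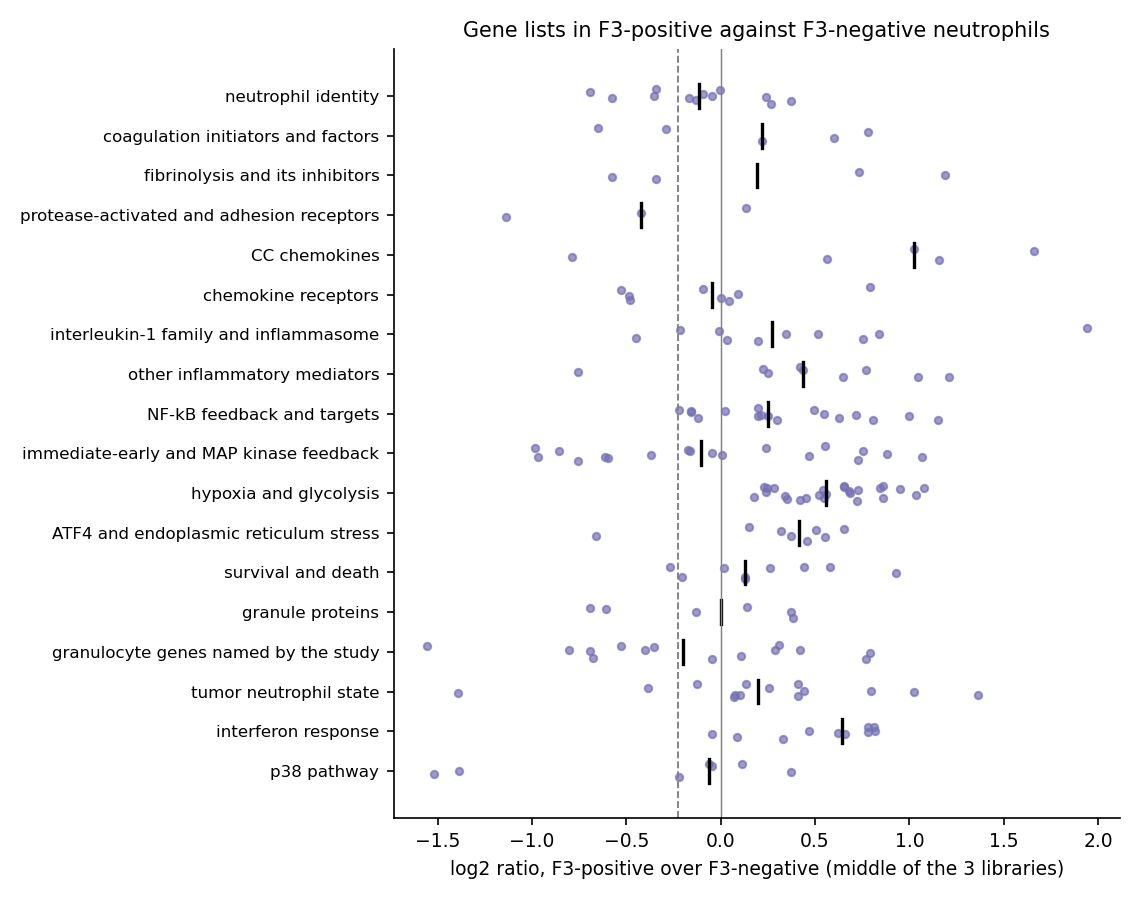
Log2 ratio of F3-positive to F3-negative neutrophils (x axis) for the tested genes of each list, each point the middle of the 3 library values, with a black bar at the list median and a dashed line at the median of all genes tested (-0.23). All glycolysis and hypoxia genes lie above 0, while immediate-early genes lie on both sides.

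The same markers were higher in F3-positive cells among the interferon neutrophils, which the rule did not use. There 135, 58 and 129 cells had an F3 count. Cxcl2 was at 22454, 14014 and 15794 CPM in them and at 12841, 5392 and 8267 CPM in interferon neutrophils without F3, log2 ratios of 0.81, 1.38 and 0.93. Plaur gave 1.13, 0.67 and 1.45, Acod1 0.73, 0.56 and 0.68, and Ccl4 0.74, 1.00 and 0.49. In interferon neutrophils without F3, Acod1 was at 1732, 1639 and 2372 CPM and Ccl4 at 2406, 1003 and 2953 CPM. Acod1 in p38i and Ccl4 in vehicle thus passed the level of the F3-positive neutrophils of the rule, and in the other libraries both lay below it. Cd274 gave 0.27, 0.81 and 0.46, and its level in interferon neutrophils without F3 (1604, 991 and 1829 CPM) was near or above that of F3-positive neutrophils in vehicle and p38KO. Mapk14 was at 12.3, 4.25 and 9.63 CPM with F3 and 11.7, 36.3 and 12.4 CPM without, from at most 13 counts in any set. All 4 markers were thus higher with F3 among the interferon neutrophils of all libraries as well. F3 again chose the cells, which came from the same 3 libraries, so this is a description and no independent check. The weight of single cells was not examined for these ratios.

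The effect of the p38 inhibitor was compared within F3-positive neutrophils, 421 cells in p38i against 231 in vehicle. A gene was called here at a 2-fold difference with at least 50 counts over both libraries. Of 3122 genes tested, 75 were higher (2.4%) and 21 lower (0.673%) in p38i, around a median of 0.07. Dusp1, a phosphatase that inactivates p38 and JNK, was at 1967 CPM in vehicle, 751 in p38i and 1883 in p38KO, and at 2483, 775 and 1616 CPM in F3-negative cells. Its log2 ratio of p38i to vehicle was -1.39 (-1.51 to -1.27) in F3-positive cells and -1.68 in F3-negative cells. By level p38i stood apart from both other libraries. Dusp1 was detected in 86.6% of vehicle, 65.6% of p38i and 71.8% of p38KO F3-positive cells, and by detection p38KO lay nearer to p38i. Ptgs2, cyclooxygenase 2, was at 868, 412 and 635 CPM, a p38i ratio of -1.07 (-1.24 to -0.90) with -0.60 in F3-negative cells.

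Other genes lower in p38i included Tsc22d3, a glucocorticoid-induced leucine zipper (-1.22, with -1.08 in F3-negative cells, but -0.27 in F3-positive cells with none of the 7 interferon genes), Map1lc3a, an autophagy protein (-1.16, with -0.04), and Rbm38, an RNA-binding protein (-1.07, with -0.43). Hspa1a, a heat shock protein, was at -1.56, but 51 of its 104 vehicle counts came from 1 cell, and Ly6g at -1.22, with 83 of 110 from 1 cell. The immediate-early list had Dusp1 as its 1 called gene of 14, with a median of -0.53 in F3-positive and -0.39 in F3-negative cells. Zfp36, which destabilises cytokine mRNA, was at -0.81, Tnfaip3, an NF-kB inhibitor, at -0.82 and Osm, oncostatin M, at -0.75, none of them 2-fold. The markers were at -0.59 for Cxcl2, -0.51 for Ccl4, -0.26 for Acod1 and 0.08 for Plaur, and Cxcl2 and Ccl4 were at -0.79 and -0.73 in F3-negative cells.

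Among genes with at least 100 counts over both libraries, those named as higher in p38i were led by Gpr146, an orphan receptor, at 28.1 CPM in vehicle and 78.1 in p38i (1.48, 0.79 to 2.23). Another 11 tested genes with fewer counts, looked at after their values were seen, had larger ratios. The largest, Mmp12, a macrophage elastase, went from 5 to 79 counts (3.22), of which 68 lay in 1 cell, and Car4, a carbonic anhydrase, from 6 to 93 counts (3.19) in 23 p38i cells. Spp1, osteopontin, was at 147 CPM in vehicle, 387 in p38i and 413 in p38KO, a p38i ratio of 1.40 (1.10 to 1.71) with 0.46 in F3-negative cells. Monocytes or macrophages held Spp1 at 899, 1288 and 928 CPM, and the summed level of the 7 monocyte markers was 239.7 CPM in p38i F3-positive cells and 134 CPM in vehicle, against 155 and 110.5 CPM in F3-negative cells. Of the 3 monocyte markers tested 1 was called higher in p38i, against 2.4% of all genes, with a list median of 1.00 in F3-positive and 0.26 in F3-negative cells. It was Chil3, also a neutrophil granule gene, and 69 of its 88 p38i counts came from 1 cell. Without each gene's highest cell 1 monocyte marker was still tested, at 0.28, and was not called. The part of these markers in the higher genes of p38i was not tested. Milr1, a mast cell immunoglobulin-like receptor also found in myeloid cells, was at 1.39, Arl11, an ARF-like GTPase, at 1.32, Ccl9, a Ccr1 ligand, at 1.30 and Saa3, an acute phase protein, at 1.33 with 1.75 in F3-negative cells. Selenof, Kdm5a and Snrpg were between 1.10 and 1.16. Inhba, an activin subunit, was at 1.29, and 60 of its 124 p38i counts came from 1 cell. In cells with none of the 6 excluded genes its ratio was -0.23. At an F3 threshold of 2 counts Spp1 was at 0.43, and after thinning to 1500 UMIs Gpr146 was at 0.79, Milr1 at 0.86 and Ccl9 at 0.38, all under 2-fold.

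The loss of p38α in the tumor cells was compared in the same way, 174 F3-positive neutrophils in p38KO against the same 231 of vehicle, so both comparisons share the vehicle cells. Of 2173 genes tested, 57 were higher (2.62%) and 67 lower (3.08%), around a median of -0.01, and 8 of the 57 were mitochondrial. Scaling by the median ratio lowered all these log2 ratios by 0.10 and gave 43 higher and 92 lower genes, and leaving out each gene's highest 1% of cells gave 72 and 42. The share of higher calls, 46.0%, became 31.9% and 63.2%. Mitochondrial counts made up 1.81% of the counts of F3-positive cells in p38KO, 0.617% in vehicle and 0.753% in p38i, and 1.77%, 0.623% and 0.795% in F3-negative cells, and their part in these differences was not tested.

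Cxcl10, an interferon-induced chemokine of the receptor Cxcr3, differed most among the higher genes. It was at 108 CPM in vehicle, 152 in p38i and 1459 in p38KO, and at 138, 96.2 and 381 CPM in F3-negative cells. It was detected in 14 of 231, 42 of 421 and 31 of 174 F3-positive cells, and 34.4% of the p38KO counts came from 3 cells. Its p38KO ratio was 3.75 (3.42 to 4.10) in F3-positive and 1.47 in F3-negative cells. The libraries also differed in how near their F3-positive cells lay to the interferon limit, with 2 of the 7 interferon genes in 36 of 231, 32 of 421 and 47 of 174 of them and none in 54.1%, 73.2% and 41.4%. Among cells with none, Cxcl10 was at 71.1, 137 and 1081 CPM, a p38KO ratio of 3.93, about as large as over all F3-positive cells. It rests on few cells, with 27 counts in 4 of 125 vehicle cells and 184 in 7 of 72 p38KO cells. Of 10 interferon genes outside the rule, 2 were called higher in p38KO (Cxcl10 and Oasl1, an oligoadenylate synthetase-like protein), against 2.62% of all genes, with a median of 0.47. Oasl1, at 1.03, was at 0.92 after median-ratio scaling and then not called. Gbp5, a guanylate-binding protein, was at 1.51 (1.10 to 1.91) and Il1a at 1.44, but both were under the limit in cells with none of the 7 interferon genes, at 0.94 and 0.27. Icam1 was at 1.38, Spp1 at 1.49, Plk3, a stress kinase, at 1.43, and Slc7a11, the cystine transporter, at 1.18. Dmxl2, N4bp1 and B4galt3 were between 1.16 and 1.24. Tnf was at 22.7 CPM in vehicle, 41.8 in p38i and 112 in p38KO, a p38KO ratio of 2.31 with 1.45 in F3-negative cells. Among the markers, Ccl4 was at 0.73, Acod1 at 0.57, Plaur at 0.40 and Cxcl2 at 0.04, none 2-fold, and Il1b was at 0.61.

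Several granule and antimicrobial genes had lower sums in F3-positive cells of p38KO. Of 8 granule proteins tested, 7 were called lower, against 3.08% of all genes, with a median of -1.95, unchanged with Camp at its bound, and -0.68 in F3-negative cells, and of 12 neutrophil identity genes 6 were lower with a median of -0.69. These counts depend on few cells. Without each gene's highest cell in either library, 3 of the 5 granule proteins still tested were lower (Lcn2, Mmp8 and Lyz2), with a median of -1.04, and without its highest 1% of cells 1 of 4 was lower (Mmp8), with a median of -0.64. The identity genes gave 3 of 10 (median -0.28) and 2 of 10 (-0.28), against 2.55% and 2.29% of all genes. Camp, cathelicidin, had 523 counts in vehicle and 0 in p38KO, at least 102-fold lower against a limit of 3 counts, but 522 of the 523 came from 1 vehicle cell. The same cell held 792 of 813 Ngp counts, 300 of 305 Ltf counts and 83 of 110 Ly6g counts, with 24695 UMIs and 1 F3 count. Without it, Ngp, Camp and Ltf summed to 27 counts in the F3-positive cells of vehicle, against 9 in those of p38KO. The differences of Camp, Ngp and Ltf in F3-positive cells thus rest on 1 cell. In F3-negative cells these genes summed to 4436 counts in vehicle and 170 in p38KO, and without the highest cell to 3154 and 83.

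Among the other lower genes Prok2, a chemoattractant prokineticin, was at 651 CPM in vehicle, 930.4 in p38i and 110.1 in p38KO, a p38KO ratio of -2.56 (-3.02 to -2.13) with -1.07 in F3-negative cells. Without its highest 1% of cells the p38KO ratio of Prok2 was -2.70. Wfdc21 was at 1932, 2276 and 745 CPM (-1.37, with -0.66 in F3-negative cells), and Lcn2 at 1749, 1803 and 619 CPM (-1.50, with -0.61). Of the vehicle counts, the highest cell gave 246 of 1445 for Wfdc21 and 429 of 1308 for Lcn2. Without the highest 1% of cells Wfdc21 stayed past the limit at -1.12, and Lcn2, at -0.82, did not. Mmp8 was at -1.58 (-2.29 to -0.93) with -0.74 in F3-negative cells. Anxa1, annexin A1, was at -1.46, with 281 of 570 vehicle counts in 1 cell and -0.45 without the highest 1% of cells. Ifitm6, an interferon-induced membrane protein, was at -2.43, with 174 of 369 vehicle counts in 1 cell. It stayed past the limit without the highest 1% of cells, at -1.50. Lyz2, lysozyme, was at -2.32 with -0.19 in F3-negative cells, but 309 of its 727 vehicle counts came from 1 cell, and without each gene's highest 1% of cells its ratio was -0.15. Nos2, inducible nitric oxide synthase, was at 154, 170.3 and 45.9 CPM (-1.74), and Saa3 was at 461, 1161 and 144 CPM. Its counts lay in few cells, with 66.4% of the 345 vehicle counts and all 63 p38KO counts in 3 cells each, and over the alternatives its ratio went from 0.60 to 3.28 in p38i and from -3.43 to -0.72 in p38KO. F10 was the 1 gene called of 5 coagulation factors tested, at -1.59 (-2.38 to -0.87) with -1.26 in F3-negative cells. Retnlg, a resistin-like protein used in the rule, was at 2853, 4449 and 571 CPM.

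**Figure D5:**
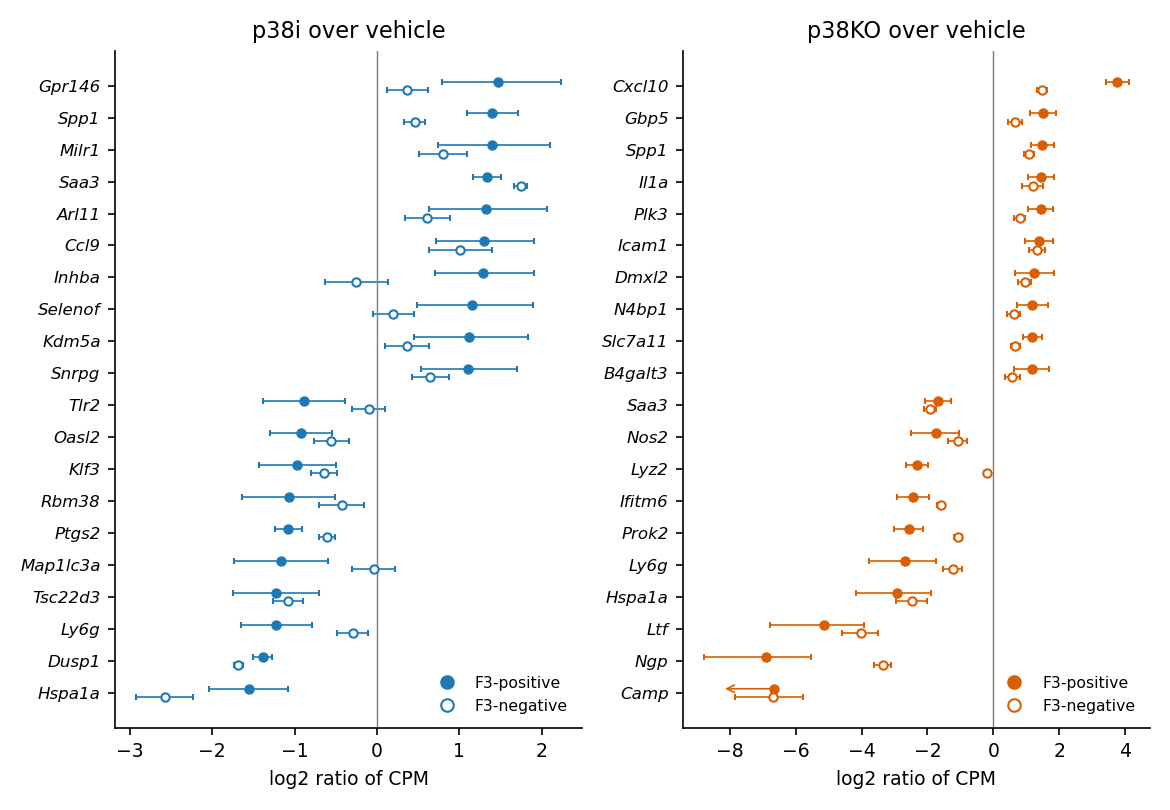
Log2 ratio of CPM to vehicle (x axis) in F3-positive (filled) and F3-negative (open) neutrophils for the named genes of p38i (left) and p38KO (right), with exact conditional binomial 95% intervals as bars; the arrow for Camp marks a bound, drawn at 3 counts. Dusp1 lies near -1.39 in p38i with a narrow interval, and Cxcl10 lies at 3.75 in p38KO.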

How the data were processed

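Live CD45+ cells of 1 pooled library per group were measured by droplet single-cell RNA sequencing. The authors deposited counts of unique molecular identifiers per gene and cell, written by Cell Ranger 6.0.0 per the file headers, with mm10, R 4.2.1 and Seurat in the submitters' processing notes; the gene annotation is not given in the sources used here. The study's filter was applied, with minimums of 1500 UMIs and 300 genes and a maximum mitochondrial share of 20%, and 3820, 4793 and 3859 of the 4588, 6343 and 5212 barcodes in vehicle, p38i and p38KO passed. No doublet caller was run, and the cell classes are rebuilt from marker genes, so they may differ from those of the study.

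Counts were summed over the cells of a set and library and scaled to CPM. A count of 0 was replaced by 0.5 in log2 ratios, and a bound used 3 counts. Intervals are 95% exact Poisson, Clopper-Pearson or conditional binomial intervals and cover counting error only. With 1 library per group there is no test and no p-value between groups. None was run between F3-positive and F3-negative cells either, because F3 chose the cells. Genes were called by size, at a log2 ratio of at least 1 and a minimum of 50 counts, leaving out the 22 genes of the rule. The ratio, interval and calling steps were tested on simulated Poisson counts of whole sets. These had no spread between cells, so they do not check calls that rest on few cells. Genes are named if they are markers, rule or list genes, among the 20 highest or 10 lowest between F3-positive and F3-negative cells, or among the 10 highest or lowest with at least 100 counts in a comparison with vehicle, without mitochondrial, ribosomal protein, Gm, Rik, Xist and Y-linked genes. Cells, members and lists were chosen with earlier results of these data known. Alternatives were thinning, other thresholds for cells, counts and size, depth weighting, median-ratio scaling and leaving out libraries or each gene's highest cells. Python 3.11.15, numpy 2.4.6, scipy 1.17.1, pandas 2.3.3 and matplotlib 3.10.9 were used.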

Additional observations from a re-analysis of the deposited data

Results flagged for a closer look

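Ngp, a granule protein of immature neutrophils, had a log2 ratio of F3-positive to F3-negative neutrophils of 1.01 in vehicle and of -2.53 in p38KO, opposite directions in 1 library each, and the difference was not tested. In the F3-positive cells of vehicle, 792 of the 813 Ngp counts came from 1 cell, and those of p38KO had 4 Ngp counts in all.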

How the results depend on the processing

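Median-ratio scaling for F3-positive against F3-negative cells, at least 5 of the 8 neutrophil genes, cells with none of the 7 interferon genes, and leaving out each gene's highest cell or highest 1% of cells were chosen after seeing the data. The share of neutrophils with F3 in vehicle, p38i and p38KO was 9.93%, 14.0% and 12.3% after thinning and 7.37%, 8.36% and 7.43% at 2 or more F3 counts, and that of p38i was 16.3% without a cell filter. Against F3-negative cells, 18 higher and 56 lower genes became 28 and 125 at 2 or more F3 counts and 148 and 508 at a log2 ratio of 0.5, and the lower genes became 106 after thinning, 32 with at least 5 neutrophil genes, 129 without the highest 1% of cells, 130 without the highest cell and 128 at a minimum of 20 counts. Of the 28 and 125, 16 and 46 were among the 18 and 56, and of the 106, 32 were among the 56. Called in 2 libraries only, which asks less of each gene, 24 to 28 were higher (24 without p38i, 26 without vehicle, 28 without p38KO) and 119 to 178 lower (178, 134 and 119). For p38i the 75 higher and 21 lower genes became 298 and 76 at a minimum of 20 counts, 18 and 8 at 100, 437 and 182 at a log2 ratio of 0.5 and 43 and 10 after thinning, and 48 were higher with at least 5 neutrophil genes. Of the 43 and 10 after thinning, 13 and 4 were among the 75 and 21. At 2 or more F3 counts 57 and 21 were called, of which 18 and 6 were among them. For p38KO the 57 and 67 became 156 and 235 at a minimum of 20 counts, 29 and 27 at 100 and 310 and 341 at a log2 ratio of 0.5, and the lower genes became 30 after thinning, 44 at 2 or more F3 counts and 42 without the highest 1% of cells. Of these 30, 44 and 42 lower genes, 14, 12 and 29 were among the 67. Of the single genes, Ly6g in p38i turned to 2.0001 at 2 or more F3 counts to 0.18 without its highest cell and to 0.74 with none of the 7 interferon genes, and Inhba to -0.23 with none of the 6 excluded genes. Of the other values of single genes, 956 kept direction and side of the 2-fold limit, 58 no longer passed it and 36 newly did. Apart from the minimum counts and size limits, whose construction changes how many genes can be called, the causes were not tested. Between groups no paired analysis was possible because each group has 1 library. F3-positive and F3-negative cells were paired within each of the 3 libraries through their ratios. No test was run on those ratios because F3 chose the cells.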

Other observations

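Interferon neutrophils with an F3 count were at 5655, 2823 and 6313 CPM for Isg15, a ubiquitin-like interferon-induced protein, in vehicle, p38i and p38KO, against 1738, 1097 and 2392 CPM in F3-positive neutrophils outside that population. Their F3 level was 762, 587 and 850 CPM, against 818, 669 and 982 CPM. Nampt was higher with F3 than without it among interferon neutrophils in all 3 libraries, with log2 ratios of 0.63, 0.57 and 0.70, and Ccl3 likewise, with 0.81, 1.26 and 0.55. Il1a gave 0.46 (-0.17 to 1.09), 1.87 (0.96 to 2.84) and 0.30 (-0.05 to 0.65), and Hk2 gave 0.57 (0.41 to 0.73), 0.09 (-0.24 to 0.42) and 0.52 (0.33 to 0.70), so the counting intervals of Il1a in vehicle and p38KO and of Hk2 in p38i included 0.

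Fth1, the ferritin heavy chain, was at 41869, 40659 and 46057 CPM in F3-positive cells and at 27018, 26975 and 28746 CPM in F3-negative cells. It was chosen after its values were seen, and no F3-positive library overlapped an F3-negative one. Interferon neutrophils, with or without F3, had Fth1 at 46395, 36020 and 48039 CPM, so its level was not particular to the F3-positive cells.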
